A study of Schizosaccharomyces pombe with 40 samples.

Results

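The fission yeast strain 2C/S-H/Y, a rep2 mutant altered at a site rather than truncated, was followed through a hydroxyurea time course on 10 two-colour arrays. These are the samples titled 2C/S-H/Y, 10 of the 40 in the series. Cells were grown in the rich medium YES at 30 degrees to mid log phase, received 8 mM hydroxyurea and were sampled at 0, 10, 30, 60 and 120 min, with 2 arrays at each time. The other 30 arrays cover Cdelta21, Cdelta53 and Cdelta94, which carry truncated rep2 and were given the same treatment, with 10 arrays each. RNA of the strain (Cy5) was hybridised on every array against pooled RNA of wild-type mid log cells (Cy3), so no wild-type culture was sampled in hydroxyurea. Which residues the site mutation changes is not spelled out in the labels, and the strain names were read from the titles, because another field describes the cells as a different mutant. Whether the replicate arrays stem from separate cultures is not stated, and p-values therefore measure the spread between arrays, which may be technical.

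Hydroxyurea inhibits ribonucleotide reductase, the enzyme that makes deoxyribonucleotides, and cells exposed to it stall in DNA replication and do not enter mitosis. In fission yeast the complex MBF (Cdc10 with Res1 and Res2) drives transcription of the genes of the G1 to S transition, Rep2 is an activator of MBF, and the corepressors Nrm1 and Yox1 switch it off. When replication stalls, the checkpoint kinases Rad3 and Cds1 keep MBF targets transcribed.

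All levels below are log2 ratios of strain to wild-type reference, averaged over the 2 probes of a gene. Changes are differences between such levels, with limma's standard error (SE) and an adjusted p from limma over the 5004 features tested. "Rose", "fell" and "changed" mean an adjusted p under 0.05. The number of arrays limits the precision. Without signal intensities, probes near background were not told apart.

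The label was first checked at rep2. Its first probe stood at 0.63 ± 0.24 (SD, n = 10) and its second at −0.10 ± 0.27 (SD, n = 10) over the 10 arrays of 2C/S-H/Y. In the truncation strains the same probes lay lower, with the highest single value at −0.53 for the first probe and −0.58 for the second, both in Cdelta21. The first probe of 2C/S-H/Y ranged from 0.26 to 1.06, above the wild-type reference on all 10 arrays, and the second from −0.65 to 0.33, on both sides of it. The second probe's lowest array lay within the range of Cdelta21 for that probe, from −1.21 to −0.58.

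The arrays fell into a 0 min pair and the rest. The replicate pairs of 2C/S-H/Y correlated across features at r = 0.87 to 0.93, which is a description over features that share their arrays. The 16 pairs of a 0 min array with a later one lay at r = 0.44 to 0.59, and 23 other pairs of later times at 0.69 to 0.91. Replicate 1 of 30 min and replicate 1 of 60 min nearly repeated each other (r = 0.99, SD of the difference 0.065), closer than any replicate pair of the strain. Counts that rest on 30 or 60 min are therefore also given without these arrays. Replicate 2 of 60 min lay further along the time course than replicate 1 for many late genes, so the mean at 60 min joins arrays that differ. The replicate pairs of Cdelta53, which enter the shared estimate of the spread, differed by an SD of only 0.058 to 0.083, against 0.143 to 0.308 in 2C/S-H/Y.

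**Figure D1:**
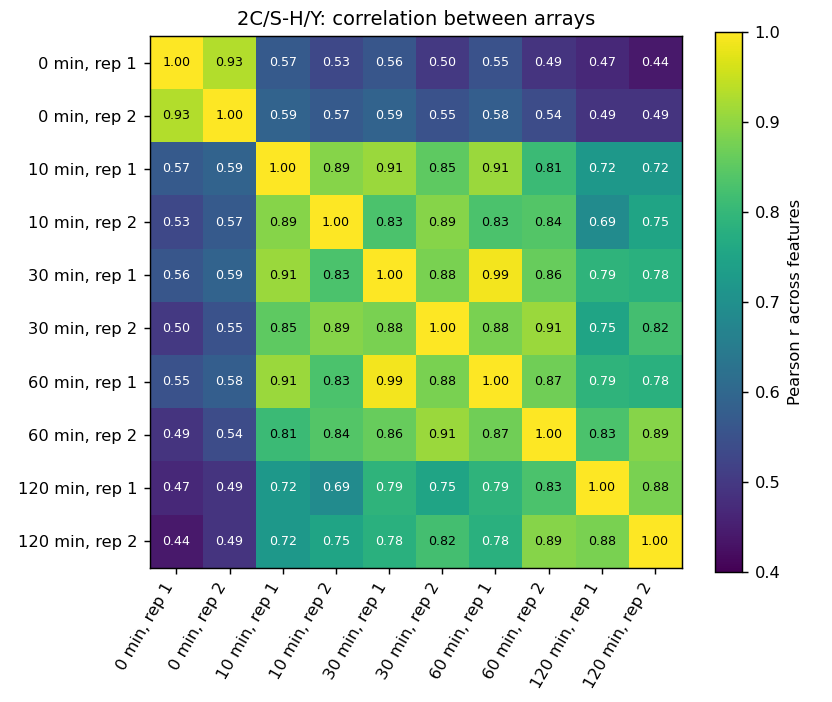
Pearson correlation across features between each pair of the 10 arrays of 2C/S-H/Y, ordered by time and replicate, with the value printed in each cell. The 0 min arrays correlate with each other at 0.93 and with no later array above 0.59, and replicate 1 of 30 and 60 min correlate at 0.99.

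The first interval, from 0 to 10 min, held the steepest changes of the course. Genes of uracil use and of iron uptake rose, while genes of glucose uptake and glycolysis, copper uptake and several core histones fell. Of 5004 features 1158 changed, or 23.1%, with 612 up (12.2%) and 546 down (10.9%), and 67 changed at least 2-fold. The count was 563 without 0 min replicate 1, 681 without 0 min replicate 2, 706 without 10 min replicate 1 and 739 without 10 min replicate 2. The median change of all features was −0.02. Because every comparison with 0 min shares the same 2 arrays, the changes at 10, 30, 60 and 120 min from 0 min are not independent of each other. That 0 min pair also stood apart from every later array. A response to hydroxyurea therefore cannot be told apart here from another difference of those 2 arrays.

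The uracil-regulated genes moved most. The urg1 transcript, whose promoter is used as a uracil-inducible switch in this yeast, stood at −0.48 and −0.12 at 0 min, 4.42 and 3.98 at 10 min, 4.88 and 4.24 at 30 min, 4.85 and 3.85 at 60 min, and 2.66 and 2.70 at 120 min. All arrays from 10 min on lay above both 0 min arrays, and both 120 min arrays lay below every array of 10 to 60 min. It rose by 4.50 from 0 to 10 min (22.6-fold, SE 0.22, adjusted p = 5.5e-15) and fell by 1.52 from 10 to 120 min (SE 0.22, adjusted p = 4.71e-06). Its neighbour in the group, urg2, went from −0.86 and −0.68 to 3.96 and 3.80 at 10 min, reached 4.94 and 4.36 at 30 min, and stood at 3.15 and 2.99 at 120 min. It rose by 4.65 in the first 10 min (SE 0.22, adjusted p = 5.5e-15). The gene uck2 peaked at once, at 1.49 and 1.38 at 10 min, and was back at 0.10 and 0.24 by 120 min, close to its 0 min values of 0.04 and 0.07. Of all features 12.2% rose from 0 to 10 min and 13.5% fell from 10 to 120 min. All 4 genes of the list rose from 0 to 10 min (median change 2.94) and all 4 fell from 10 to 120 min (median −1.04). For urg3 this rests on the probe. With the first probe alone its change from 0 to 10 min was −0.43, against 0.50 over both.

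Iron uptake genes rose with them. Fission yeast takes up iron through cell-surface ferric reductases, an oxidase-permease complex and siderophore transporters, which are made when iron is scarce. The ferric reductase gene frp1 stood at −1.45 and −1.53 at 0 min, at 2.13 and 2.22 at 10 min, at 2.78 and 2.75 at 30 min, at 2.72 and 2.82 at 60 min and at 2.32 and 2.60 at 120 min. It was thus below the reference at 0 min and above it on all 8 later arrays, a rise of 3.66 by 10 min (12.7-fold, SE 0.12, adjusted p = 3.6e-19). The siderophore transporter gene str3 rose by 1.71, the permease gene fip1 by 1.11, its partner oxidase gene fio1 by 1.04, the reductase gene frp2 by 0.88, str1 by 0.51 and the vacuolar transporter gene abc3 by 0.35. In the other direction, pcl1, which encodes a vacuolar iron transporter and belongs to the genes switched off under iron limitation, fell from −0.37 and −0.46 to −0.95 and −1.22 at 10 min and to −1.93 and −2.07 at 30 min. In all, 7 of the 14 genes of iron uptake and regulation rose and 1 fell from 0 to 10 min (median 0.42), against 12.2% and 10.9% of all features. Without 0 min replicate 1 the count that rose was 5, and pcl1 no longer passed there (−0.62), nor without 10 min replicate 2 (−0.53).

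Single genes of amino acid uptake and nitrogen starvation rose early, though the median changes of their lists were near 0. The permease gene isp5 stood at 0.40 and 0.53 at 0 min, at 2.84 and 2.31 at 10 min and at 1.05 and 1.33 at 120 min, so that its 10 min arrays were the highest of the course. Its change was 2.11 from 0 to 10 min (SE 0.19, adjusted p = 2.36e-09) and −1.39 from 10 to 120 min. The oxygenase gene isp7 followed the same course, with 0.12 and −0.24 at 0 min, 2.03 and 1.67 at 10 min and 0.66 and 0.39 at 120 min. The proline permease gene put4 rose by 1.16 and was back at 0.27 and 0.29 at 120 min, near its 0 min values of 0.24 and 0.30. The glutamate dehydrogenase gene gdh2 differed from these, since it rose by 1.12 at first and went on to 1.73 and 1.97 at 120 min. Of 13 genes of amino acid permeases and glutamate metabolism 4 rose and 1 fell from 0 to 10 min (median −0.03), against 12.2% and 10.9% of all features. From 10 to 120 min 1 rose and 7 fell, against 13.2% and 13.5%. Of 24 genes of mating, meiosis and nitrogen starvation 4 rose and 4 fell in the first interval (median 0.01), a share near that of all features.

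Genes of glucose use fell. The high-affinity glucose transporter gene ght5 stood at −0.08 and −0.14 at 0 min, at −2.51 and −2.52 at 10 min, at −2.76 and −2.85 at 30 min, at −2.74 and −2.85 at 60 min and at −2.18 and −2.67 at 120 min. The step was over by 10 min, with a change of −2.41 (SE 0.13, adjusted p = 2.6e-14) and then 0.09 from 10 to 120 min (adjusted p = 0.649). The hexokinase gene hxk2 went from 1.18 and 1.04 to −0.03 and −0.26, and stayed between −0.46 and −0.09 after that. Of the 15 genes of glycolysis and fermentation 12 fell and 0 rose from 0 to 10 min by limma. Over all features 10.9% fell and 12.2% rose. With an unadjusted p under 0.05 the list held 14 lower and 0 higher, and its median change was −0.55. The largest falls after hxk2 were tdh1 (glyceraldehyde-3-phosphate dehydrogenase, −1.09) and pfk1 (phosphofructokinase, −0.80). These genes stood above the reference at 0 min, with a list mean of 0.81 and 0.64 on the 2 arrays, and near it at 10 min, with 0.19 and 0.07. The count was 7 without 0 min replicate 1, 7 without 10 min replicate 2, and 8 when the spread was taken from the arrays of 2C/S-H/Y alone. In the list of hexose transport and glucose-repressed genes 3 of 10 fell, against 10.9% of all features. These were ght5, ght1 and the repressor gene scr1.

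Other genes stepped down and stayed down. The centromere protein gene cnp3 (CENP-C, which links centromeric chromatin to the kinetochore) stood at 0.47 and 0.38 at 0 min, at −1.61 and −1.43 at 10 min, and between −2.04 and −1.64 on the 6 later arrays. Its change was −1.94 from 0 to 10 min (SE 0.12, adjusted p = 1.03e-12) and −0.30 from 10 to 120 min (adjusted p = 0.0586). Of 19 centromere and kinetochore genes cnp3 and sap1, a DNA-binding protein gene, were the 2 that fell in the first 10 min, a share near the 10.9% of all features, and 0 rose by limma (0 also at an unadjusted p under 0.05). The biotin transporter gene vht1 had the same shape, from 0.24 and 0.12 at 0 min to −1.69 and −1.60 at 10 min and −1.60 and −1.91 at 120 min. The copper transporter genes ctr4 and ctr5 fell by 1.38 and 1.37, and ctr4 alone then regained 0.93 between 10 and 120 min (SE 0.10, adjusted p = 1.88e-08). Among the 10 genes of the copper and zinc list 4 fell, against 10.9% of all features. In it 1 rose, the metallothionein gene zym1, against 12.2%. In the opposite direction the gene cbm1 stepped from −0.50 and −0.51 to 1.85 and 1.63 and lay between 1.54 and 2.08 from 30 min on.

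**Figure D2:**
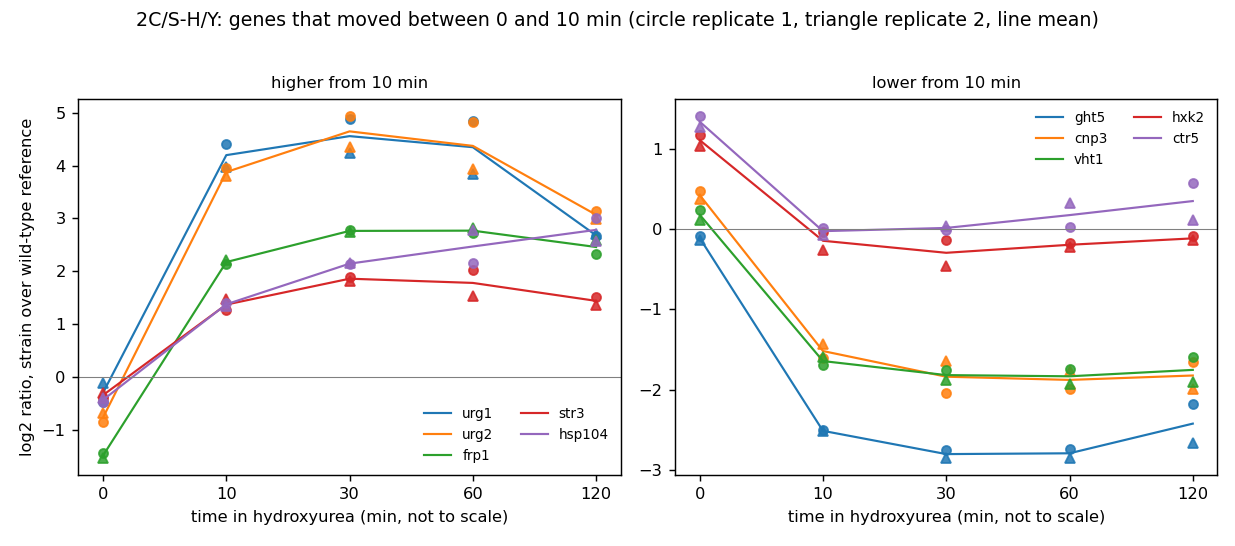
Log2 ratio of strain to wild-type reference for 5 genes that rose (left) and 5 that fell (right) from 0 to 10 min in 2C/S-H/Y, against time in hydroxyurea. Circles are replicate 1, triangles replicate 2 and lines the mean of both. The frp1 arrays move from −1.45 and −1.53 to 2.13 and 2.22, and ght5 from −0.08 and −0.14 to −2.51 and −2.52, in the first interval.

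Whether the early step differed from that of the truncation strains was tested as a difference of changes between strains. Of all features 1007 (20.1%) differed between 2C/S-H/Y and the mean of the 3 truncation strains in the change from 0 to 10 min, 517 higher (10.3%) and 490 lower (9.79%). The count was 518 without 0 min replicate 1 and 614 without 10 min replicate 1 of 2C/S-H/Y. It was 526 once near-repeat arrays were merged. The frp1 change was 3.66 in 2C/S-H/Y against −0.06 in Cdelta21, 0.37 in Cdelta53 and −0.07 in Cdelta94, a difference of 3.58 (SE 0.14, adjusted p = 3e-17). The ght5 change was −2.41 against −0.01, 0.10 and −0.03 (difference −2.43, SE 0.15, adjusted p = 1.62e-12). That of cnp3 was −1.94 against 0.04, 0.21 and −0.04 (difference −2.01, SE 0.14, adjusted p = 1.5e-11). For urg1 the contrast was less even, because Cdelta53 also changed by 2.0, beside −0.15 in Cdelta21 and −0.26 in Cdelta94. At 0 min the urg1 means were −0.30 in 2C/S-H/Y, −0.31 in Cdelta21, −0.48 in Cdelta53 and 0.72 in Cdelta94, and the frp1 means −1.49, −1.10, 0.21 and −1.38. The hxk2 mean of 1.11 in 2C/S-H/Y at 0 min stood above 0.47, 0.21 and −0.31 in the truncation strains, and the ght5 mean of −0.11 above −0.97, −1.0 and −1.16. Strain and any batch of culture or slide cannot be told apart here, since the labels name no batch.

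The lists were set against the truncation strains in the same way, beside 10.3% of all features that were higher and 9.79% that were lower. For iron uptake and regulation the early change was higher than in the truncation strains for 7 of 14 genes and lower for 1 (median difference 0.40). All 4 uracil-regulated genes were higher (median 2.67). Of the 18 MBF targets cdc18 (0.76), cdt1 (0.70) and cdt2 (0.41) were higher. The targets dut1 (−0.50) and cnt5 (−0.45) were lower, and the rest were not called. For glycolysis and fermentation 7 of 15 were lower (median −0.44), and 2, 4 and 3 of 15 without 0 min replicate 1, 10 min replicate 1 and 10 min replicate 2. For core histones 3 of 9 were lower (median −0.31), but these calls were lost without either 0 min replicate and without 10 min replicate 2.

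**Figure D3:**
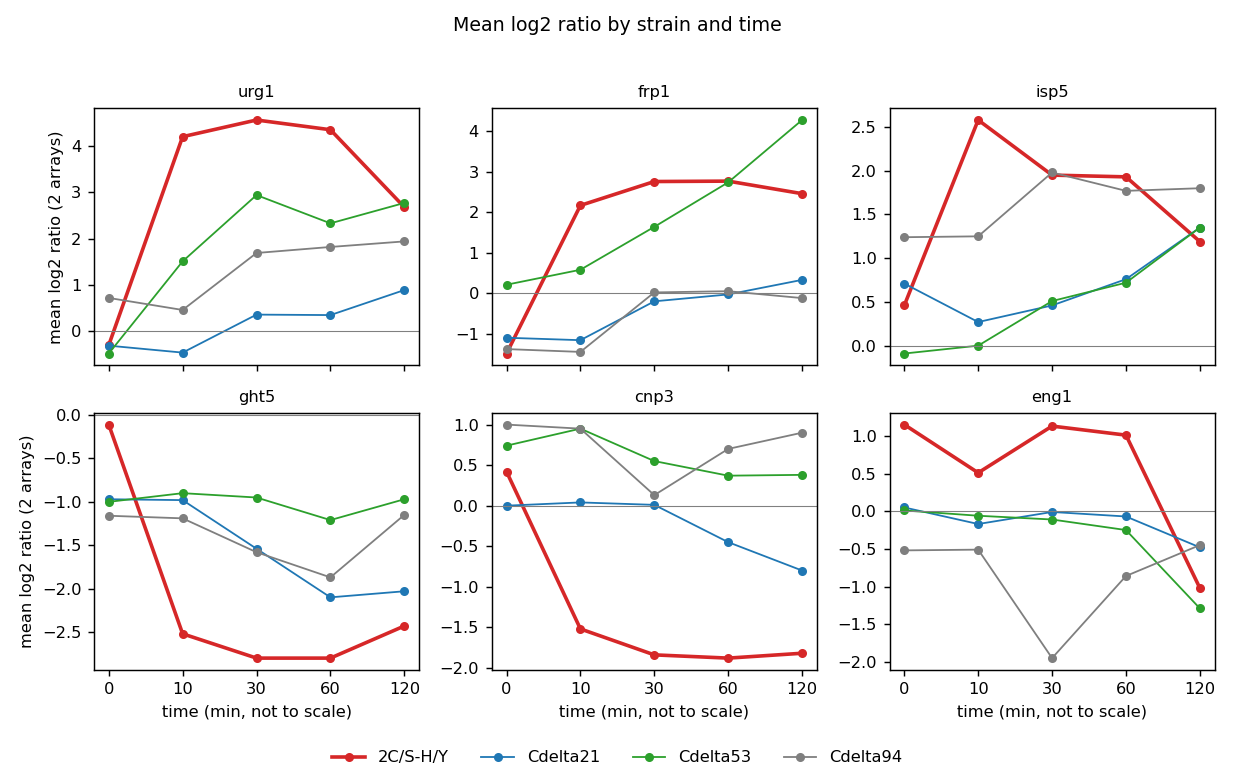
Mean log2 ratio of the 2 arrays of each strain at each time for urg1, frp1, isp5, ght5, cnp3 and eng1, with time not to scale and 2C/S-H/Y as the thick red line. The 2C/S-H/Y line moves between 0 and 10 min in the first 5 panels, for example from −1.49 to 2.17 for frp1. The labelled times of the Cdelta94 arrays at 30 and 120 min are in doubt.

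From 0 min to the later times the counts grew. At 30 min 1296 features (25.9%) had changed, 680 up (13.6%) and 616 down (12.3%). At 60 min the count was 1475 (29.5%), with 778 up (15.5%) and 697 down (13.9%), and at 120 min 2219 (44.3%), with 1076 up (21.5%) and 1143 down (22.8%). The 30 min count was 855 with both near-repeat arrays left out, 811 without 30 min replicate 1, 709 without 0 min replicate 1 and 830 without 0 min replicate 2. The 60 min count was 1139 without 60 min replicate 1, 1168 with both near-repeat arrays left out, 861 and 976 without the 0 min replicates in turn, and 749 with near-repeat arrays of both strains counted once. Over the whole course from 0 to 120 min 2151 features (43%) changed between any times, with the smallest adjusted p among named genes at frp1 (3.64e-21). The spread of values across features grew as well, from an SD of 0.38 and 0.37 on the 0 min arrays to 0.64 and 0.60 at 120 min. To leave out the 0 min arrays, the late change was taken from 10 to 120 min. In that comparison 1336 features (26.7%) changed, with 661 up (13.2%), 675 down (13.5%) and 128 at least 2-fold, and 882 changed without 10 min replicate 2.

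MBF targets rose gradually. Their mean over the 18 genes tested was 0.17 and 0.17 on the 0 min arrays, 0.23 and 0.24 at 10 min, 0.64 and 0.66 at 30 min, 0.64 and 0.97 at 60 min and 0.94 and 1.01 at 120 min. The 30 min arrays thus lay above both earlier times, and the 2 arrays of 60 min did not match each other. From 0 to 10 min 3 rose and 2 fell (median 0.02), a share near the background of all features. By 30 min 10 had risen and 1 had fallen (median 0.34), by 60 min 12 and 1 (median 0.48) and by 120 min 14 and 2 (median 0.63). Of all features 13.6%, 15.5% and 21.5% had risen by these times, and 12.3%, 13.9% and 22.8% had fallen. From 10 to 120 min 14 rose and 1 fell (median 0.67), against 13.2% and 13.5% of all features. With both near-repeat arrays left out 7 had risen by 30 min, with no call lower, and the 60 min counts were 13 and 1, and after quantile normalization the counts from 10 to 120 min were 10 and 1 (median 0.49). The listed targets yox1 and rhp51 are not analysed here.

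The largest rise among the MBF targets was that of cdc18. This gene, which encodes the licensing factor that loads the replicative helicase, stood at 0.03 and 0.20 at 0 min, at 0.98 and 0.94 at 10 min, at 1.94 and 1.76 at 30 min, at 1.94 and 2.43 at 60 min and at 2.95 and 2.53 at 120 min. Each later time lay above both 10 min arrays. It rose by 0.84 in the first 10 min (SE 0.20, adjusted p = 0.00281) and by 1.78 from 10 to 120 min (3.43-fold, SE 0.20, adjusted p = 7.68e-08). Its partner in licensing, cdt1, rose by 0.52 in the first 10 min and levelled after 30 to 60 min, with 0.85 and 0.82 at 10 min, 1.57 and 1.53 at 30 min, 1.65 and 1.97 at 60 min and 1.49 and 1.82 at 120 min. Among genes of the nucleotide supply, cdc22 (large subunit of the reductase) stood at 0.71 and 0.62 at 0 min and 0.87 and 0.78 at 10 min, and reached 1.86 and 1.70 at 30 min and 2.40 and 2.39 at 120 min. It rose by 1.57 from 10 to 120 min (SE 0.16, adjusted p = 1.91e-08). The gene cdt2, which directs the inhibitor Spd1 to degradation, rose by 1.58 over the same span, from 0.50 and 0.29 to 1.98 and 1.96. The spd1 transcript itself fell by 0.57, from 0.15 and 0.06 at 10 min to −0.24 and −0.69 at 120 min. The small subunit gene suc22 changed by 0.27 (adjusted p = 0.0727). In the list of ribonucleotide reductase and dNTP supply 5 of 9 genes rose and 1 fell from 10 to 120 min (median 0.86), against 13.2% and 13.5% of all features. From 0 to 120 min 6 rose and 1 fell, against 21.5% and 22.8%. This list shares cdc22 and cdt2 with the MBF targets, and grx1 and trx1 with the antioxidant genes below, so its counts are not separate from theirs.

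The S-phase cyclin gene cig2 was among the last targets to climb, from 0.24 and 0.47 at 10 min to 0.86 and 0.92 at 30 min, 0.85 and 1.43 at 60 min and 2.03 and 2.06 at 120 min. Its change from 10 to 120 min was 1.70 (SE 0.14, adjusted p = 5.83e-10). The resection factor gene ctp1 rose by 0.98, with most of it after 30 min, since the 30 min arrays were at 0.44 and 0.46 and the 120 min arrays at 1.21 and 1.27. Checkpoint genes of the list moved less. The kinase gene mik1 rose by 0.60 and the adaptor gene mrc1 by 0.43, and mrc1 was highest at 60 min replicate 2 (0.63) and back at 0.09 and 0.18 by 120 min. Against the list, the mismatch repair gene msh6 fell by 0.44 from 10 to 120 min (SE 0.12, adjusted p = 0.00682), and the gene cnt5, formerly csx2, was lower at 120 than at 0 min by 0.67. Of the MBF subunits and regulators 0 of 6 fell from 10 to 120 min by limma (0 also unadjusted), against 13.5% of all features. Over the same span 3 rose, against 13.2%. These were the corepressor gene nrm1 (0.45), which is itself an MBF target, rep2 (0.46, adjusted p = 0.0179) and cdc10 (0.37). The cdc10 change was −0.11 with the first probe alone, and the rep2 call was lost without 10 min replicate 2 (0.31) and without 120 min replicate 1 (0.41). Both rep2 probes had been lower at 10 than at 0 min. The first stood at 0.78 and 0.56 at 0 min, 0.41 and 0.26 at 10 min and 1.06 and 0.82 at 120 min. The second stood at 0.33 and −0.18, then −0.19 and −0.65, and at 120 min at −0.13 and −0.10, between its 0 min values.

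The change of the MBF targets from 10 to 120 min was set against the mean of Cdelta21 and Cdelta53. Cdelta94 was left out because its labelled times at 30 and 120 min are in doubt. Over all features 353 (7.05%) differed, 172 higher (3.44%) and 181 lower (3.62%). That count rests heavily on single arrays. It was 114 without 120 min replicate 1, 788 without 120 min replicate 2, 165 and 228 without 10 min replicates 1 and 2, and 73 once near-repeat arrays were merged. Of the 18 MBF targets 0 differed by limma in this late change, while 3 were higher and 2 lower in 2C/S-H/Y at an unadjusted p under 0.05 (median difference 0.05). The median change of the list was 0.67 in 2C/S-H/Y, 0.88 in Cdelta21 and 0.49 in Cdelta53. The mean of those strains thus joins one above and one below 2C/S-H/Y, and each strain alone was not tested against it. For cdc18 the difference was −0.24, with a 95% interval from −0.75 to 0.27. For cdc22 it was 0.10 (−0.32 to 0.51) and for cdt2 0.04 (−0.26 to 0.33). Differences within these intervals remain compatible with the data, so the lack of calls does not show equal changes.

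Lists of replication, checkpoint and repair genes are set beside 13.2% of all features that rose and 13.5% that fell from 10 to 120 min. Of 30 licensing and replisome genes 4 rose and 5 fell (median −0.13), shares near those of all features. The 4 include cdc18, cdt1 and the replication protein A gene ssb1, which are also in the MBF target list. The helicase subunit gene mcm3 fell by 0.72 (SE 0.10, adjusted p = 1.94e-06), from 0.16 and 0.11 to −0.68 and −0.49. In the replication checkpoint list 2 of 14 rose, mrc1 and mik1, and 4 fell, chk1 (the DNA damage kinase, −0.90), rad17, wee1 and rad1. In recombination and repair 2 of 16 rose and 3 fell, and from 0 to 10 min 0 of 16 changed by limma (0 also unadjusted). Of 13 genes of cyclins and Cdc2 control 3 rose and 2 fell from 10 to 120 min.

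Core histones dipped and then rose. Their list mean was 0.58 and 0.50 on the 0 min arrays, 0.19 and 0.01 at 10 min, 0.24 and 0.00 at 30 min, 0.22 and 0.33 at 60 min, and 1.02 and 0.66 at 120 min. Both 120 min arrays lay above all others. Of the 9 genes 5 fell from 0 to 10 min (median −0.40) and 8 rose from 10 to 120 min (median 0.80), against 10.9% and 13.2% of all features. The H2A gene hta1 rose by 1.03, from 0.31 and −0.18 at 10 min to 1.23 and 0.95 at 120 min (SE 0.19, adjusted p = 0.000161), and the H2B gene htb1 by 0.87, from 0.19 and −0.10 to 0.98 and 0.84. The early fall was seen in 3 genes without 0 min replicate 1 and in 2 without 10 min replicate 2. From 0 to 120 min 5 histone genes rose (median 0.43), but 1 did without 120 min replicate 1 and 2 without 0 min replicate 2, and after quantile normalization the rises were lost and 1 fell (median 0.07). Of all features 21.5% rose from 0 to 120 min. The rise from 10 to 120 min was larger than in Cdelta21 and Cdelta53 for 3 of 9, hta1, hta2 and htb1 (median difference 0.41). Over all features 3.44% were higher in that comparison. It was larger for 1 gene without 120 min replicate 1, 6 without 120 min replicate 2, and the calls were lost without 10 min replicate 2 and once near-repeat arrays were merged. The H3 and H4 genes have near-identical copies, so their probes may not tell the copies apart.

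**Figure D4:**
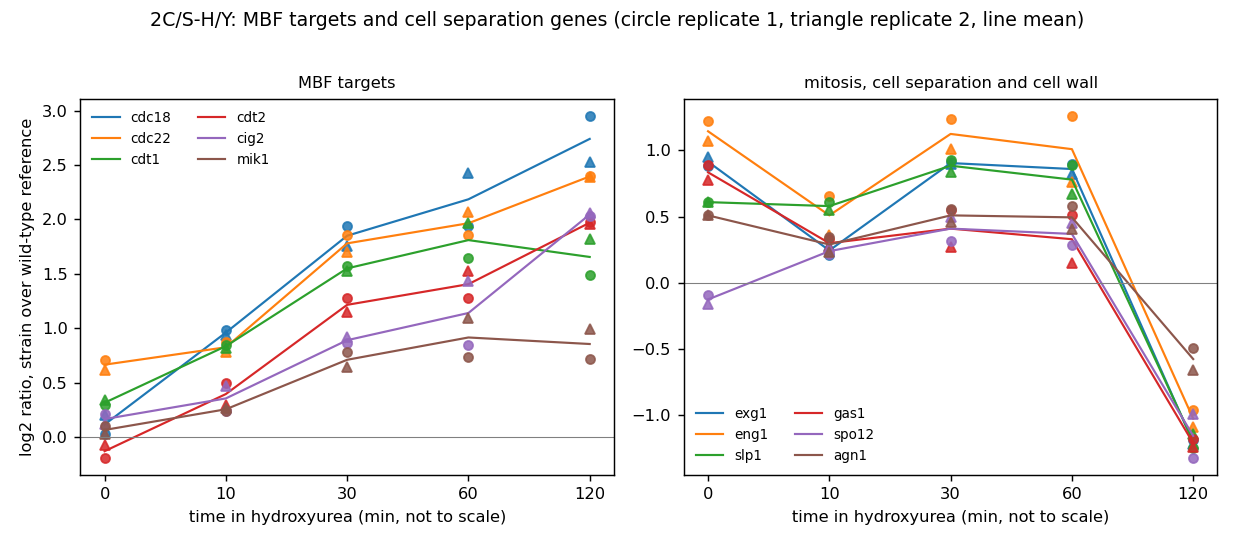
Log2 ratio of strain to wild-type reference for 6 MBF targets (left) and 6 genes of mitosis, cell separation and cell wall (right) in 2C/S-H/Y. Circles are replicate 1, triangles replicate 2 and lines the mean of both. The MBF targets climb from 10 min on, cdc18 to 2.95 and 2.53 at 120 min, while exg1 and slp1 are positive on all arrays up to 60 min and below −1.1 on both 120 min arrays.

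Genes of cytokinesis and cell separation turned down between 60 and 120 min. In fission yeast the glucanases Eng1 and Agn1 dissolve the division septum at the end of division. The eng1 levels were 1.22 and 1.07 at 0 min, 0.66 and 0.36 at 10 min, 1.24 and 1.01 at 30 min, 1.26 and 0.76 at 60 min and −0.96 and −1.09 at 120 min. Both 120 min arrays were thus far below every earlier array, and the 30 min arrays lay above the 10 min arrays. Its change was −1.53 from 10 to 120 min (SE 0.13, adjusted p = 5.91e-10). The glucanase gene exg1 followed the same course, with 0.21 and 0.28 at 10 min, 0.91 and 0.90 at 30 min and −1.19 and −1.22 at 120 min. The septum glucanase gene agn1 stood at 0.56 and 0.46 at 30 min and at −0.49 and −0.66 at 120 min. Of the 19 genes of the list 11 fell from 10 to 120 min and 0 rose by limma (12 and 0 unadjusted; median −0.57), against 13.5% of all features that fell. Among the 11 were adg1 and adg3, the mitotic exit gene spo12, the septum-ring gene mid2, the actomyosin-ring gene cdc15 and the forkhead factor gene fkh2. For mid2 the probes disagreed, with 0.29 for the second probe alone.

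The level at 30 min was compared with the mean of 10 and 120 min in a single contrast. It picked out 114 features (2.28%), 68 above (1.36%) and 46 below (0.919%). The count was 66 without 30 min replicate 1, 41 without 30 min replicate 2, 174 without 120 min replicate 2 and 70 after quantile normalization, where 52 were above. In this contrast 9 of the 19 genes of cytokinesis and cell separation were above and 0 below by limma (11 and 0 unadjusted; median 0.33), and 6 with both near-repeat arrays left out. The largest were exg1 (1.38, SE 0.09, adjusted p = 5.8e-11) and eng1 (1.38), at 1.37 and 1.27 with both near-repeat arrays left out. For spo12 and agn1 the mean at 30 min (0.41 and 0.51) lay little above that at 10 min (0.24 and 0.29), so most of their contrast is the low level at 120 min. Of the uracil-regulated genes 2 of 4 were above, urg1 by 1.12 and urg2 by 1.18. Both calls were lost without 30 min replicate 1, at 0.80 (adjusted p = 0.087) and 0.88 (adjusted p = 0.0609), though not with 60 min replicate 1 left out as well (adjusted p = 0.0123 and 0.0161).

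Single genes that act in mitosis fell late. The gene slp1, the activator of the anaphase-promoting complex (Cdc20 in other species), stood between 0.55 and 0.93 on all 8 arrays up to 60 min and at −1.25 and −1.14 at 120 min. It fell by 1.78 from 10 to 120 min (SE 0.10, adjusted p = 7.25e-14). Among named genes it had the smallest p in the time course from 10 to 120 min (adjusted p = 3.23e-15). In that test 983 features (19.6%) changed, and 601 without 120 min replicate 1. The kinesin gene klp5 fell by 0.95, from 0.65 and 0.57 to −0.40 and −0.28, and the separase gene cut1 by 0.83. In the list of mitosis and anaphase 7 of 24 genes fell and 2 rose (median −0.25), against 13.5% and 13.2% of all features, and the 2 that rose, the cohesin genes psm3 and rad21, are also in the MBF target list. From 0 to 120 min 10 of 19 centromere and kinetochore genes fell, against 22.8% of all features, and 1 rose, the centromeric histone gene cnp1 (0.56). Among these were cbp1 (−1.27) and sap1, which went from 0.71 and 0.64 at 0 min to −0.81 and −1.40 at 120 min. The fall of sap1 was not only late, since it was called by 10 min and stood at −1.45 from 0 to 60 min. The cell wall gene gas1 stood at 0.33 and 0.27 at 10 min and at −1.18 and −1.24 at 120 min.

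Stress genes were among the largest late rises. The core environmental stress response of fission yeast is driven by the kinase Sty1 and the factor Atf1, and covers chaperones, antioxidant enzymes and trehalose and glycerol metabolism. The small heat shock gene hsp16 stood at 0.91 and 0.87 at 0 min, at 1.84 and 1.69 at 10 min, at 3.31 and 3.17 at 30 min, at 3.33 and 4.36 at 60 min and at 5.16 and 5.02 at 120 min. Its level was higher at each time than at the one before, except that 60 min replicate 1 matched the 30 min arrays, and it rose by 3.32 from 10 to 120 min (SE 0.17, adjusted p = 3.92e-14). The gene hsp9 stayed between 1.00 and 1.99 up to 60 min and reached 3.19 and 2.79 at 120 min. The dehydrogenase gene tms1 was at 0.05 and −0.08 at 10 min, 0.32 and 1.14 at 60 min and 1.70 and 2.34 at 120 min, and so moved after 60 min replicate 1. The glutathione transferase gene gst2 rose by 1.81, the trehalase gene ntp1 by 1.57 and the trehalose synthase gene tps1 by 1.41. Of the 20 genes of the core stress response 16 rose from 10 to 120 min and 0 fell by limma (16 and 1 unadjusted; median 0.91), against 13.2% that rose among all features. Rises from 10 to 120 min were also ranked among named genes past the threshold whose groups did not overlap. The 12 largest there included lsd90 (2.52), tsp0 (2.16) and 5 genes with systematic names only, led by SPOM_SPAC27D7.09C (3.03) and SPOM_SPAC637.03 (2.79). In the first 10 min the list of 20 was mixed, with 5 up and 3 down, against 12.2% and 10.9% of all features. In that interval gpd1, the glycerol-3-phosphate dehydrogenase gene, fell by 0.65 and hsp9 by 0.64.

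Chaperones rose across compartments. The disaggregase gene hsp104 rose at once, from −0.47 and −0.40 to 1.40 and 1.35 at 10 min, and stood at 3.0 and 2.57 at 120 min. Of 17 chaperone genes 13 rose from 10 to 120 min and 0 fell by limma (15 and 0 unadjusted; median 0.61), against 13.2% of all features that rose. They include the cytosolic psi1 (1.27), sti1 (1.05), the HSP90 co-chaperone gene aha1 (1.03) and ssa1 (0.98), the mitochondrial hsp78 (0.94), hsp10 (0.86) and mcp60 (0.46), and bip1 of the endoplasmic reticulum (0.31). In the first 10 min 3 rose and 5 fell, against 12.2% and 10.9% of all features. Those that fell included sti1, wos2 and ssa1. The chaperone list shares members such as hsp104 with the core stress response list. The count of late rises was 9 without 120 min replicate 1 and 9 when the spread was taken from the arrays of 2C/S-H/Y alone. The late rise of hsp10 was larger in 2C/S-H/Y than in Cdelta21 and Cdelta53, at 0.86 against 0.08 and −0.59 (difference 1.11, SE 0.17, adjusted p = 8.76e-05), as was that of fes1, which encodes an Hsp70 exchange factor, at 1.47 against 0.59 and 0.29.

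Antioxidant and protein turnover genes followed. Of 19 Pap1 and antioxidant genes 13 rose and 1 fell from 10 to 120 min (median 0.69), against 13.2% and 13.5% of all features, and 8 and 1 after quantile normalization (median 0.20). Some of these genes are also in the core stress response or the dNTP supply list, so the counts are not separate. The glutaredoxin gene grx1 went from 0.97 and 0.77 at 10 min to 2.60 and 2.13 at 120 min and the thioredoxin gene trx1 from 0.61 and 0.54 to 1.51 and 1.36. The superoxide dismutase gene sod1 ran the other way. It rose by 1.05 in the first 10 min, from −0.31 and −0.15 to 0.96 and 0.69, and fell by 0.83 to −0.05 and 0.04 at 120 min. Of 33 proteasome genes 18 rose, against the same 13.2%, and 0 fell by limma (22 and 0 unadjusted; median 0.33), with the largest at pup3 (0.78). The proteasome count was 11 without 120 min replicate 1, 10 without 10 min replicate 2 and 11 after quantile normalization. The metallothionein gene zym1 rose by 1.76 from 10 to 120 min, but its 120 min arrays stood apart at 1.92 and 3.05.

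Ribosome biogenesis genes fell. Of 85 tested 33 fell and 1 rose from 10 to 120 min (median −0.25), against 13.5% of all features that fell. The list mean moved from −0.23 and −0.18 at 10 min to −0.45 and −0.54 at 120 min. The RNA helicase gene dbp2 was the far end of the list, at −0.06 and −0.20 at 10 min, −0.61 and −1.57 at 60 min and −2.25 and −2.39 at 120 min. It fell by 2.19 (SE 0.17, adjusted p = 1.06e-10). The count was 13 after quantile normalization, 20 without 10 min replicate 2 and 21 without 120 min replicate 2. Of 116 cytosolic ribosomal proteins 1 rose and 2 fell (median 0.07), and of 56 mitochondrial ones 7 rose and 2 fell, beside 13.2% and 13.5% of all features. In the respiratory chain and ATP synthase 11 of 36 rose and 1 fell (median 0.20).

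Among the genes of mating, meiosis and nitrogen starvation 3 of 24 rose and 7 fell from 10 to 120 min. The gene ste6, an exchange factor of Ras1, rose by 1.97 from −0.41 and −0.43 to 1.49 and 1.60 (SE 0.19, adjusted p = 8.29e-09). Set against it, the regulator gene of sexual development ste11 fell by 0.76, from −0.12 and −0.33 to −1.06 and −0.91, and mei2 by 0.55. The remaining lists are given for the change from 10 to 120 min, against 13.2% of all features that rose and 13.5% that fell. Of 15 sterol and oxygen response genes 3 rose and 0 fell by limma (5 and 3 unadjusted). Of 7 thiamine and phosphate genes 1 rose and 3 fell. Of 19 purine and pyrimidine synthesis genes 2 rose and 1 fell, of 10 copper and zinc genes 3 and 2, of 14 iron genes 1 and 2, and of 10 hexose transport and glucose-repressed genes 1 and 2. Of the glycolysis genes 4 of 15 rose, and 0 fell by limma (8 and 0 unadjusted), from levels that had dropped in the first interval. The 1 Tf2 retrotransposon gene on the array, Tf2-11, changed by −0.02.

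**Figure D5:**
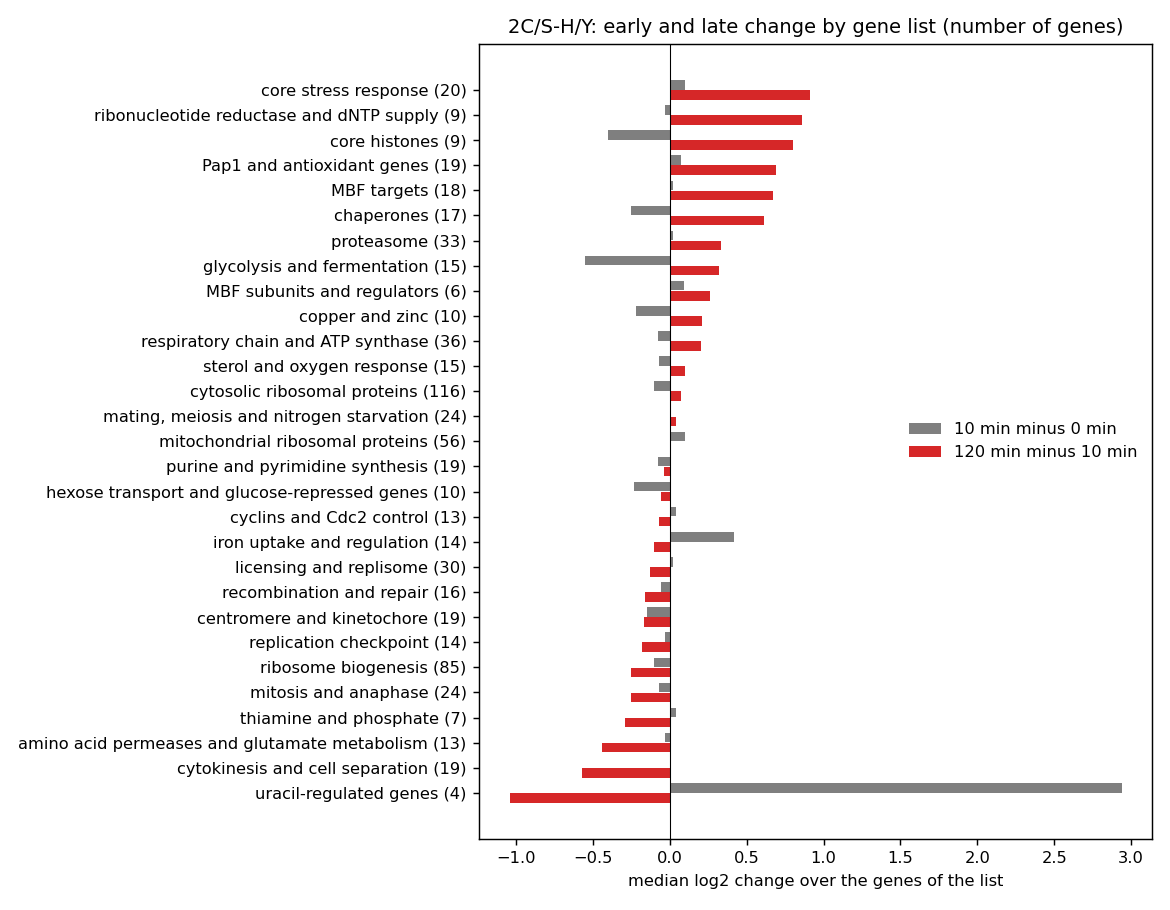
Median log2 change of the tested genes of each list in 2C/S-H/Y from 0 to 10 min (grey) and from 10 to 120 min (red), with the number of genes in brackets and lists ordered by the late change. The uracil-regulated list has the largest early median (2.94) and the lowest late one (−1.04), and the core stress response the highest late median (0.91).

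Late changes were also set against the other strains for the uracil, iron and amino acid lists, beside 3.62% of all features that were lower and 3.44% that were higher. All 4 uracil-regulated genes had a lower change from 10 to 120 min than the mean of Cdelta21 and Cdelta53 (median difference −1.67), as had 7 of 14 genes of iron uptake and regulation (median −0.70) and 6 of 13 genes of amino acid permeases and glutamate metabolism (median −0.44). Of these 6, isp5, gdh2, put4 and per1 had risen in the first 10 min, while aat1 had fallen and gln1 had changed by −0.24 (adjusted p = 0.212). Once near-repeat arrays were merged the counts were 4 of 4 for uracil-regulated genes, 6 of 14 for iron uptake and regulation and 3 of 13 for amino acid permeases and glutamate metabolism. Genes of other lists had a higher late change. In the respiratory chain and ATP synthase these were atp4, atp14, atp15, atp17, cox4, cox13, cyt1 and qcr8. In the proteasome they were pup3, pre10, rpn1302, rpt1 and nas2, and among chaperones hsp10, ssa1, mcp60 and aha1. These lists held no lower call. The count over all features in this comparison rests heavily on single arrays, as given above. For frp1 the change was 0.28 in 2C/S-H/Y (adjusted p = 0.0777, and −0.40 after quantile normalization) against 1.49 in Cdelta21 and 3.69 in Cdelta53. In 2C/S-H/Y its level had been reached by 10 min (mean 2.17), whereas Cdelta53 passed from 0.58 at 10 min to 4.28 at 120 min. For isp5 the change was −1.39 against 1.08 and 1.36, and at 120 min the means of the 3 strains stood at 1.19, 1.35 and 1.35. The early and the late difference share the 10 min arrays, so they are not independent of each other.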

How the data were processed

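The analysis started from log2 ratios, 1 per probe and array, as deposited by the authors. No signal intensities were used. Base 2 was inferred, because unlogged values under 1 then fell on steps of 0.001 (tolerance 0.02 of a step) in 100% of cases. Per the labels, the strain carried Cy5 and the pooled wild-type reference Cy3 on all arrays, with no dye swap. The direction was taken as Cy5 over Cy3. The sources used here give no scanner, background correction or normalization. Array medians lay between −0.122 and 0.062.

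Of 9858 probes, 9632 carried 1 gene symbol, 44 several and 182 none. The 2 probes of a gene were averaged. Features with values on fewer than 80% of arrays, or on no array of a group, were dropped, which removed 38 and left 5004, of which 4794 are named genes. Symbols were updated through the RefSeq table of ASM294v3 (99.5% matched).

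Group means over all 40 arrays were fitted with limma 3.58.1 in R 4.3.3 (20 residual degrees of freedom, also used for the 95% intervals), with Benjamini-Hochberg adjustment over 5004 features and a threshold of 0.05. On simulated data with 5004 genes, 58% of log2 changes of 0.5 and 97% of log2 changes of 1 were recovered from 0 to 10 min. The simulated noise was independent between arrays, and its spread was averaged over all groups, the close Cdelta53 pairs included. Recovery in 2C/S-H/Y itself may therefore be lower. Genes were named by size of change among those past the threshold with groups that did not overlap, and from the gene lists. Each list is reported for at least 1 comparison within the strain, but the strain differences are given for only some lists. The members and lists were chosen with earlier results of these data known. Alternatives covered normalization, probes, filters, the arrays fitted, the replicate block and each array left out.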

Additional observations from a re-analysis of the deposited data

Results flagged for a closer look

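The 20 results here were picked because the change in 2C/S-H/Y differed from that in the truncation strains by limma's test of the difference. From 0 to 10 min the excess over the mean of the 3 truncation strains was 4.15 for urg2, 3.97 for urg1, 3.64 for SPOM_SPCC63.13 (1 of its 0 min values in 2C/S-H/Y is missing), 3.58 for frp1 and 3.19 for SPOM_SPBC17G9.12C. Of these, SPOM_SPBC17G9.12C rose by 1.74 in 2C/S-H/Y while its change was −2.66 in Cdelta21, −0.96 in Cdelta53 and −0.74 in Cdelta94. The difference was −2.43 for ght5, −2.26 for mfs3, −2.05 for SPOM_SPBPB2B2.06C, −2.01 for cnp3 and −1.87 for vht1. For mfs3 the change was −1.39 in 2C/S-H/Y and 2.14 in Cdelta21, so that part of its difference lies in that strain.

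From 10 to 120 min, against the mean of Cdelta21 and Cdelta53, the difference was 1.11 for hsp10, 1.04 for gpd3, 1.03 for fes1, 1.03 for tsn1 and 0.91 for ctr4. It was −2.83 for urg1, −2.61 for isp5, −2.31 for frp1, −2.13 for urg2 and −1.96 for SPOM_SPBC17G9.12C. The gpd3 call was lost with the first probe (0.87) and with near-repeat arrays counted once (1.04), and the tsn1 call with the second probe (0.44). Adjusted p over the 20 results ran up to 0.00667, for gpd3. Which property of the strains or arrays these differences follow was not tested.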

How the results depend on the processing

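The count from 0 to 120 min (2219) stayed within 1.5 times under all alternatives. From 0 to 10 min it was 1784 after quantile normalization, 713 with only the arrays of 2C/S-H/Y, 676 and 624 with the first and the second probe alone, and, as alternatives chosen after seeing the data, 730 with near-repeat arrays of Cdelta53 and 2C/S-H/Y counted once and 718 without the Cdelta53 arrays. With single arrays left out it ran from 563 to 1242. In the order of these settings that moved them, the other counts were as follows. At 30 min they were 840 with only the strain's arrays, 855 with both near-repeats left out, 813 and 780 by probe, and 709 to 1365 with an array left out. At 60 min they were 949 and 895 by probe, 749 with near-repeats counted once, and 861 to 1539. From 10 to 120 min they were 890, 872 and 827 for the strain's arrays and the probes, and 882 to 1358. For 30 min against the mean of 10 and 120 min they were 70 (74.3% of them above, against 59.6%), 31, 74, 44, 72 and 57 for quantile, strain only, both probes, near-repeats once and no Cdelta53, and 41 to 174. For the time course from 0 to 120 min they were 1346 with the strain's arrays and 1429 with the second probe, and 1562 to 2236. From 10 to 120 min the time course gave 625, 435, 642, 545, 622 and 579 for the same 6 settings, and 601 to 1067. The early strain difference gave 1568 after quantile normalization, 632 with the second probe and 526 with near-repeats once, and 518 to 1093. The late one gave 563, 587, 178, 136 and 73 (28.8% higher, against 48.7%) for quantile, strains compared only, both probes and near-repeats once, and 114 to 788. The MBF target mean, 0.74 higher at 120 than at 10 min, was 0.47 higher after quantile normalization. Why the settings differ was not tested.

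Of 322 named or listed values past the threshold, 102 lost it under at least 1 of 22 settings. Reversals of sign were sought over all 561 named or listed values, once for each setting. Only values past the threshold in the main fit or under that setting were counted, and these reversals came to 13. They include values not past the threshold in the main fit, such as frp1 from 10 to 120 min. With the first probe alone cdc10 stood at −0.20 (120 against 0 min) and −0.11 (120 against 10 min), cta3 at 0.16 (10 against 0 min), mid2 at −0.75 and urg3 at −0.51 (both 120 against 0 min), urg3 at −0.43 (10 against 0 min) and rds1 at −0.21 (120 against 10 min). With the second, mid2 stood at 0.29 (120 against 10 min). After quantile normalization dut1 stood at −0.24, gpd1 at −0.56 and hsp9 at −0.49 (120 against 0 min), and frp1 at −0.40 and srx1 at −0.03 (120 against 10 min).

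With the replicate number as a block the counts were 1227, 1362, 1547 and 2280 from 0 min to 10, 30, 60 and 120 min, 1396 from 10 to 120 min, 115 for 30 min against its neighbours, 1087 and 396 for the early and late strain differences and 2212 and 1043 for the time courses. Deviations of same-numbered arrays correlated at 0.06 to 0.65 between times. With only 2 numbers this does not establish a pairing.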
